A study of Mus musculus with 23 samples.

Results

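The 5 genes described here encode growth factors attributed to the oocyte: Gdf9 (growth differentiation factor 9), Bmp15 and Bmp6 (bone morphogenetic proteins 15 and 6), Fgf8 (fibroblast growth factor 8) and Btc (betacellulin). They were taken by symbol, and all 5 were found among the 22784 genes of the deposited expression table. All 5 were also among the 14242 genes that reached at least 1 FPKM (fragments per kilobase of transcript, scaled to the total of mapped fragments) in at least 1 group. These 14242 are called the tested genes below, although no statistical test was possible.

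Poly(A) RNA of 23 mouse samples was sequenced in 8 groups, which follow the making of oocytes in culture and in the animal. The culture route (strain C57BL/6 X 129, 14 samples) ran from female embryonic stem (ES) cells kept in 2i+LIF to cells resembling primordial germ cells (PGCLCs), taken 6 days after induction. The PGCLCs were then aggregated with somatic cells of female E12.5 gonads, 5000 PGCLCs to 50000 somatic cells, and sequenced at day 3 of aggregation. Oocytes of secondary follicles were taken at day 21. Metaphase II (MII) oocytes followed once the follicles had been cultured for 11 days and matured for 16 hours. The animal route (strain B6D2F1, 9 samples) had E12.5 primordial germ cells (PGCs) and secondary follicle oocytes of postnatal day 8, both sorted with BVSC transgenes, and MII oocytes of females aged 8 weeks. Strain and route cannot be told apart. The medium of the cultured follicles held 2 of the factors themselves, BMP15 and GDF9, each at 15 ng/ml for the first 2 days, and the maturation medium held EGF at 4 ng/ml. The day 6 PGCLCs had 2 samples and each other group 3, with 337 to 812 oocytes per secondary follicle sample and 99 to 134 per MII sample.

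The table holds 1 FPKM value per gene and group, so the spread between samples cannot be seen, no difference below has a replicate check, and the depth of the libraries is unknown. A difference is the change in log2(FPKM + 1), which understates changes of low genes, and at least 2-fold means a difference of at least 1 on that scale. FPKM is divided by transcript length, so levels of different genes are set side by side on it. The summed FPKM of a group was 268720 to 349772 in the 6 groups before MII, 616260 in MII oocytes from culture and 975407 in those from the animal, so differences that involve MII are also given after scaling all groups to equal sums.

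GDF9 and BMP15 are secreted members of the TGF-beta superfamily by which the oocyte acts on the granulosa and cumulus cells around it. They are made as precursors that furin-like convertases cut, and they bind pairs of type II and type I serine/threonine kinase receptors, which phosphorylate SMAD proteins. BMP6 belongs to the same superfamily, and FGF8 acts with BMP15 on the sugar metabolism of cumulus cells. BTC is an EGF-like ligand, freed from the cell surface by ADAM proteases, and in the mouse follicle it is best known as a product of granulosa cells after the ovulatory surge of luteinizing hormone.

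Of the 5 genes, 4 fitted the label of an oocyte product in all 4 oocyte groups. Gdf9, Bmp15, Bmp6 and Fgf8 had at least 10 FPKM in each of these groups and at most 2.36 FPKM in any earlier group. Btc did not: it was listed at 0 in 5 of the 8 groups, secondary follicle oocytes of both routes among them, and passed 10 FPKM only in MII oocytes from the animal. Markers of the oocyte, 8 genes that include Zp1, Zp2, Zp3 and Mos, summed to between 8991 and 22177 FPKM in the 4 oocyte groups and to at most 24.7 FPKM in the other 4.

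In the GRCm38 (mm10) annotation of GENCODE release M21, Gdf9 lies on chromosome 11 from 53431023 to 53437904 on the plus strand and has 2 exons and 441 codons. Bmp15, of the minus strand of chromosome X (6314107 to 6320721), also has 2 exons, and 392 codons. Bmp6 lies on chromosome 13 from 38345107 to 38500302 on the plus strand, with 7 exons in its longest coding transcript. Fgf8, of the minus strand of chromosome 19 (45736798 to 45742915), has 6 coding transcripts in this annotation, and the deposited table gives 1 value for the gene. Btc, of the minus strand of chromosome 5 (91357261 to 91402994), has 6 exons and 177 codons.

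The ends of the messages are shown because the samples were purified by their poly(A) tails. In maturing oocytes, the cytoplasmic polyadenylation element (CPE), a U-rich motif close to the polyadenylation hexamer, governs the lengthening of stored poly(A) tails through the protein CPEB. Each line has 30 bases from the last 100 of the longest coding transcript in GENCODE M21, written 5′ to 3′, with the CPE TTTTAT and the hexamers AATAAA and ATTAAA in capitals.
Gdf9: TTTTATgtgacggaagAATAAActgttgat
Bmp15: ttaatcttaaagAATAAAttttcatttatg
Bmp6: atttattgtctaTTTTATatccattttgct
Btc: attcattgaagcATTAAAgatattctactt
Gdf9 has a CPE that starts 39 bases from the end of the transcript and a hexamer that starts 23 bases from it, with 10 bases between the motifs. Bmp15 and Btc have a hexamer without a CPE in this window, Bmp6 has a CPE without a hexamer, and the annotated Fgf8 transcript has neither, so no line is printed for it. Of 19626 genes of the table with a coding transcript, 13.3% had TTTTAT in the last 100 bases, 76.6% had either hexamer, and 8.46% had the order seen in Gdf9, a CPE before the last hexamer. A match of letters is not a proven site, and an annotated end may differ from the end used in oocytes. The sole form of the CPE searched was TTTTAT, so the absence of other forms cannot be stated.

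The 250 bases before the start of Bmp15 and Btc are shown because 1 of these genes was high in all 4 oocyte groups and the other in 1. They come from RefSeq on GRCm38.p6, on the minus strand, at chrX:6320725-6320974 for Bmp15 and chr5:91402995-91403244 for Btc, and capitals mark each E-box, CANNTG, the motif of basic helix-loop-helix factors such as FIGLA.
Bmp15: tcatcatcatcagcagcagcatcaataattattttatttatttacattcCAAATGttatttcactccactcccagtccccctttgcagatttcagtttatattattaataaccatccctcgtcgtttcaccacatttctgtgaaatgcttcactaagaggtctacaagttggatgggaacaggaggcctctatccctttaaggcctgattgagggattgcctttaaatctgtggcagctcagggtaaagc
Btc: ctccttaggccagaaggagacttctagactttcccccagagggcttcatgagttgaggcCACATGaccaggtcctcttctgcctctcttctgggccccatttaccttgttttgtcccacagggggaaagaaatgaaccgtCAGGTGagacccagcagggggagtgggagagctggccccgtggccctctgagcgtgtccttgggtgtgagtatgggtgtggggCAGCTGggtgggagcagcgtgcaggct
Bmp15 has 1 E-box, and Btc has 3. The motif reads the same on both strands, and 66.2% of 32536 RefSeq promoter windows of this length hold at least 1. For NOBOX only the form TAATTG was searched, on both strands, and it is in neither window and in 7.18% of all windows. Other forms of the NOBOX element were not searched, so their absence cannot be stated. Of the 5 genes, 3 had an entry (Bmp15, Bmp6 and Btc). The Bmp6 window lies inside the GENCODE gene and is not printed, and Gdf9 and Fgf8 had none.

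**Figure D1:**
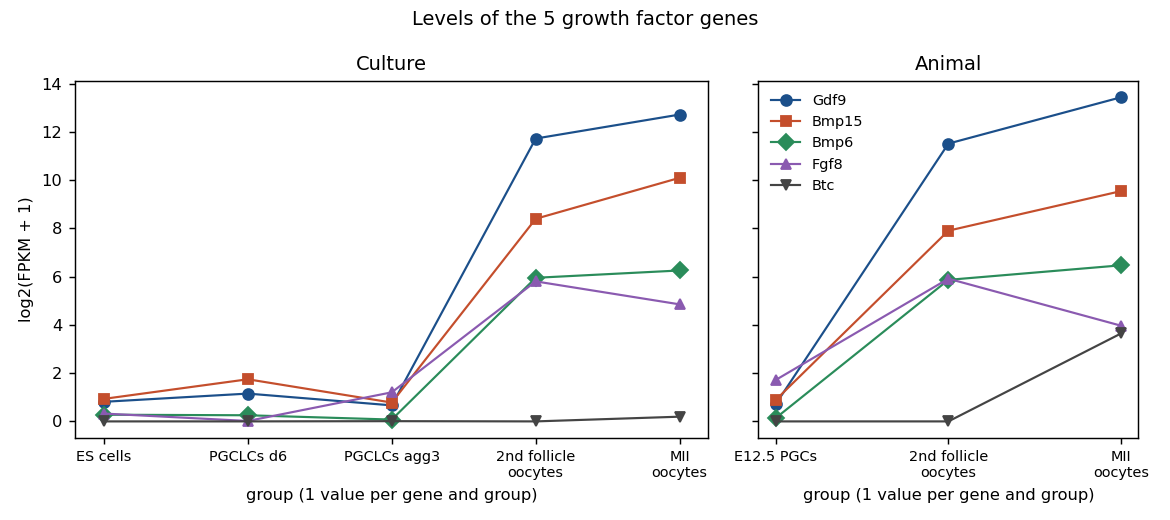
The y axis is log2(FPKM + 1) and the x axis the 5 groups of the culture route and the 3 of the animal route in order, with 1 point per gene and group and no error bars. Gdf9, Bmp15, Bmp6 and Fgf8 stand apart from their early levels in both kinds of oocyte, and Btc does so in MII oocytes from the animal, at 11.5 FPKM.

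Gdf9 was the most abundant of the 5 messages in all 4 oocyte groups. In culture its FPKM was 0.756 for ES cells, 1.22 for PGCLCs of day 6, 0.585 for day 3 aggregates, 3394 for secondary follicle oocytes and 6768 for MII oocytes. In the animal it was 0.637 FPKM in E12.5 PGCs, 2936 in secondary follicle oocytes and 11132 in MII oocytes. The 4 oocyte groups are thus far above the 4 earlier ones, and the MII value is above the secondary follicle value in both routes. Among the 14242 tested genes Gdf9 ranked 4th in both culture oocyte groups, and 8th and 5th in secondary follicle and MII oocytes of the animal. It made up 0.971% and 1.10% of the summed FPKM in culture, and 0.839% and 1.14% in the animal.

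Bmp15, the X-linked partner of Gdf9, was second in each oocyte group. ES cells had 0.911 FPKM, PGCLCs of day 6 had 2.36 and day 3 aggregates 0.719, followed by 337 in secondary follicle oocytes and 1098 in MII oocytes from culture. In the animal the series was 0.849 FPKM in E12.5 PGCs, 239 in secondary follicle oocytes and 749 in MII oocytes. The culture value was the higher one at both oocyte stages. Per length, Gdf9 exceeded Bmp15 by 10.1 times in secondary follicle oocytes and 6.17 times in MII oocytes from culture. In the animal this ratio, which no scaling of a group can change, was 12.3 and 14.9, so it was lower at MII in culture and higher at MII in the animal.

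Bmp6 was a moderate oocyte message with little difference among the 4 oocyte groups. In the culture route its FPKM was 0.212 in ES cells, 0.193 in PGCLCs of day 6, 0.0540 in day 3 aggregates, 61.0 in secondary follicle oocytes and 75.6 in MII oocytes. In the animal it had 0.0993, 57.5 and 87.9 FPKM in E12.5 PGCs, secondary follicle oocytes and MII oocytes. The 3′ end of Bmp6 overlaps 224 bases of Txndc5, a gene of the opposite strand that had 173 FPKM in secondary follicle oocytes and 836 in MII oocytes of the animal. The libraries were directional, but no source used here gives the strand setting of the counting, so a share of Txndc5 reads in the Bmp6 value was not tested.

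Fgf8 was highest at the secondary follicle stage in both routes. Its FPKM in culture was 0.253 for ES cells, 0.0122 for PGCLCs of day 6, 1.31 for day 3 aggregates, 55.0 for secondary follicle oocytes and 27.9 for MII oocytes. In the animal it had 2.29 FPKM in E12.5 PGCs, 59.4 in secondary follicle oocytes and 14.6 in MII oocytes. It was the sole one of the 5 genes above 1 FPKM in the last germ cell groups sampled before the secondary follicle, day 3 aggregates and E12.5 PGCs. At the secondary follicle stage Bmp6 and Fgf8 had nearly the same level, with a ratio of 1.11 in culture and 0.967 in the animal, and at MII Bmp6 exceeded Fgf8 by 2.71 and 6.00 times.

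Btc was listed at 0 in ES cells, day 6 PGCLCs, E12.5 PGCs and secondary follicle oocytes of both routes. It had 0.00682 FPKM in day 3 aggregates, 0.145 in MII oocytes from culture and 11.5 in MII oocytes from the animal. A value listed at 0 in a table without counts can be a failed estimate, so no ratio of FPKM is given against groups listed at 0. The log2 differences of Btc in the steps to MII below, and their 2-fold calls, rest on such zeros. Btc passed the minimum of 1 FPKM only through MII oocytes of the animal, which set the direction of its differences against that group.

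The onset of the 4 oocyte genes fell between the last germ cell group and the secondary follicle in both routes. From day 3 aggregates to secondary follicle oocytes in culture, the log2 difference was 11.06 for Gdf9, 7.62 for Bmp15, 5.88 for Bmp6 and 4.60 for Fgf8. From E12.5 PGCs to secondary follicle oocytes in the animal it was 10.81, 7.02, 5.73 and 4.20 in the same order. So 4 of 5 genes were at least 2-fold higher in each route, where 25.2% and 24.3% of tested genes were, in culture and in the animal. At least 2-fold lower were 0 of 5, against 26.4% and 25.9%. With a constant of 0.1 in place of 1, Bmp15 and Bmp6 had 8.69 and 8.63 in culture and 7.98 and 8.17 in the animal, so their order depends on the constant. The difference between these onsets, culture minus animal, was 0.26 for Gdf9, 0.60 for Bmp15, 0.15 for Bmp6 and 0.40 for Fgf8, and 0 of 5 genes reached 2-fold against 5.19% of tested genes in either direction.

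Before that stage all 5 genes were low. Between ES cells and day 6 PGCLCs 0 of 5 reached 2-fold in either direction, against 21.6% of tested genes. Between day 6 PGCLCs and day 3 aggregates 1 of 5 did, Fgf8, which was higher by 1.19 on the log2 scale, against 10.2% of tested genes. All values in these 3 groups were at most 2.36 FPKM, where the constant added before the logarithm sets much of the difference. With a constant of 0.1, Bmp15 was higher by 1.28 in day 6 PGCLCs than in ES cells and lower again in day 3 aggregates (-1.58). Fgf8 went the other way with that constant, with -1.65 and then 3.65.

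From secondary follicle to MII oocytes the 5 genes went different ways. In the animal the log2 difference was 1.92 for Gdf9, 1.64 for Bmp15, 0.60 for Bmp6, -1.95 for Fgf8 and 3.65 for Btc. That put 3 of 5 genes at least 2-fold higher, against 28% of tested genes, and 1 of 5 at least 2-fold lower, against 33.1%. Btc is among the 3, from a listed 0, and it reached the minimum of 1 FPKM only in MII oocytes of the animal. In culture the differences were 1.00 for Gdf9, 1.70 for Bmp15, 0.30 for Bmp6, -0.95 for Fgf8 and 0.20 for Btc. There 1 of 5, Bmp15, was at least 2-fold higher, against 23.9% of tested genes, and 0 of 5 lower, against 28.6%, with Gdf9 and Fgf8 just inside the limit.

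The higher MII values of Gdf9 and Bmp15 depended on the scale. With equal sums the difference of Gdf9 was 0.18 in culture and 0.44 in the animal, that of Bmp15 0.88 and 0.17, and that of Bmp6 -0.50 and -0.85, so Bmp6 changed sign. Fgf8 was lower at MII on both scales, with -1.75 in culture and -3.31 in the animal for equal sums, and Btc in the animal stayed higher, at 2.62. Over all tested genes the median difference moved from -0.08 to -0.50 in culture and from -0.09 to -0.74 in the animal under that scaling. Within a group the order of the messages does not depend on scale: Fgf8 went from rank 1313 of 14242 to 3105 in culture and from 1156 to 4301 in the animal, Bmp6 from 1154 to 1587 and from 1206 to 1818, and Bmp15 from 90 to 56 and from 151 to 195.

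**Figure D2:**
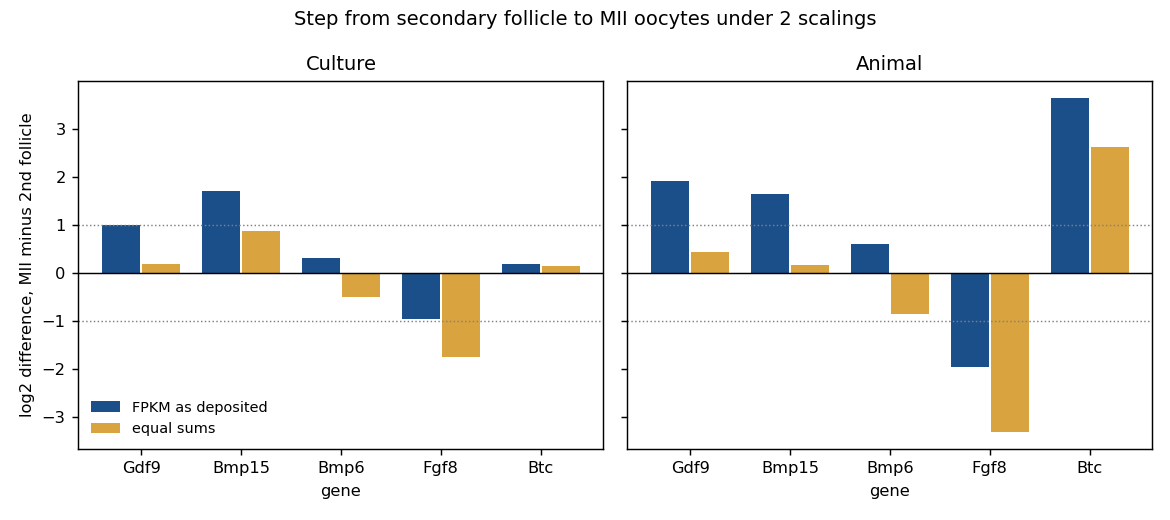
Bars give the log2 difference of MII minus secondary follicle oocytes for each gene on the x axis, in culture (left) and in the animal (right), from FPKM as deposited and after scaling to equal sums, with dotted lines at 2-fold and no error bars, since there is 1 value per group. Fgf8 is below 0 in all 4 bars, and Bmp6 is above 0 as deposited and below 0 with equal sums.

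The step to MII was also read by the motifs at the transcript end, a grouping chosen after the values of the 5 genes were seen. Of 1292 tested genes with a CPE before the last hexamer, the class of Gdf9, 48.6% were at least 2-fold higher at MII in culture and 56.9% in the animal. Of 9294 genes with a hexamer and no TTTTAT before it, the class of Bmp15 and Btc, 23.6% and 27.2% were. Of 2435 genes with no hexamer in the last 100 bases, the class of Bmp6 and Fgf8, 15.5% and 18.5% were higher and 37.9% and 42.3% lower. The class medians were 0.94, -0.09 and -0.46 in culture and 1.43, -0.11 and -0.57 in the animal. With equal sums all classes moved down and their order held, with medians of 0.33, -0.54 and -0.97 in culture and 0.30, -0.83 and -1.28 in the animal. As deposited, Gdf9, Bmp15, Bmp6 and Btc were above the median of their class in both routes, and Fgf8 was below it. In the animal Bmp15 and Btc were at 1.64 and 3.65. With equal sums Gdf9 in culture was below the median of its class, at 0.18 against 0.33, and the rest kept their side. Transcript length, base composition and the choice of poly(A) site differ between such classes, and their part was not tested. Poly(A) selection cannot tell apart more message and a longer tail on the same message.

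**Figure D3:**
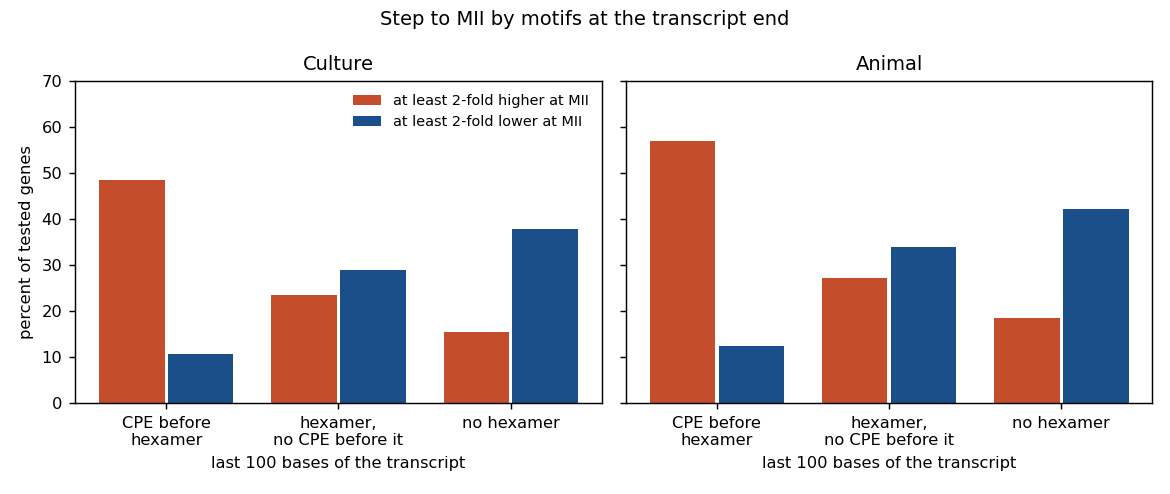
Bars give the percent of tested genes at least 2-fold higher or lower in MII than in secondary follicle oocytes, in culture (left) and in the animal (right), for 3 classes of the last 100 bases of the transcript on the x axis. The class with a CPE before the hexamer has 48.6% and 56.9% of genes higher, and the class with no hexamer 15.5% and 18.5%.

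At the secondary follicle stage Gdf9, Bmp15, Bmp6 and Fgf8 were within 2-fold between culture and animal. The FPKM in culture was 1.16 times that in the animal for Gdf9, 1.41 times for Bmp15, 1.06 times for Bmp6 and 0.924 times for Fgf8, with Btc listed at 0 in both. So 0 of 5 reached 2-fold, against 2.4% of tested genes in either direction. The difference of Bmp15, 0.49, was above that of 91.7% of tested genes. Day 3 aggregates and E12.5 PGCs also had 0 of 5 past 2-fold, against 2.18%, and Fgf8 had the widest difference, at -0.51. With shares this low, a count of 0 says little about 5 genes.

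MII oocytes differed more between the routes. Btc was lower in culture, 0.145 against 11.5 FPKM, a log2 difference of -3.45 below which lay 0.0351% of tested genes. It was the sole one of 5 at least 2-fold lower, against 9.45% of tested genes, and 0 of 5 were at least 2-fold higher, against 12.4%. Btc reached the minimum of 1 FPKM only in MII oocytes of the animal, so the direction of this difference was set by the filter. Its calls against that group and its place among tested genes are thus no separate result. Gdf9 was lower in culture by less than 2-fold (-0.72), Bmp6 by little (-0.21), and Bmp15 and Fgf8 were higher by 0.55 and 0.89. With equal sums Bmp15 and Fgf8 passed 2-fold, at 1.21 and 1.46, Gdf9 was at -0.06, Bmp6 at 0.44 and Btc at -2.48. Btc was thus lower in culture on either scale, and the sign of the Bmp6 difference turned. With the medians of the groups made equal instead, Gdf9 passed 2-fold, at -1.11. Of all tested genes, 1772 passed 2-fold with the higher value in culture and 1346 with the higher value in the animal. These counts were 2385 and 168 with equal sums, and 979 and 3112 with equal medians. The steps to MII, culture minus animal, differed by -0.93 for Gdf9, 0.06 for Bmp15, -0.30 for Bmp6, 1.00 for Fgf8 and -3.45 for Btc, with 1 of 5, Btc, past 2-fold against 22.9% of tested genes in either direction. Unrounded, the value of Fgf8 was 0.997, just inside the limit. The oocyte markers also differed between the MII groups, with 6 of 8 at least 2-fold higher in culture, 0 lower and a median of 2.61. Oosp1 and Mos went the other way within 2-fold, at 5368 and 1204 FPKM in culture and 10415 and 2217 in the animal. With equal medians 2 of 8 were at least 2-fold lower. The part of these markers in the differences above was not tested.

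**Figure D4:**
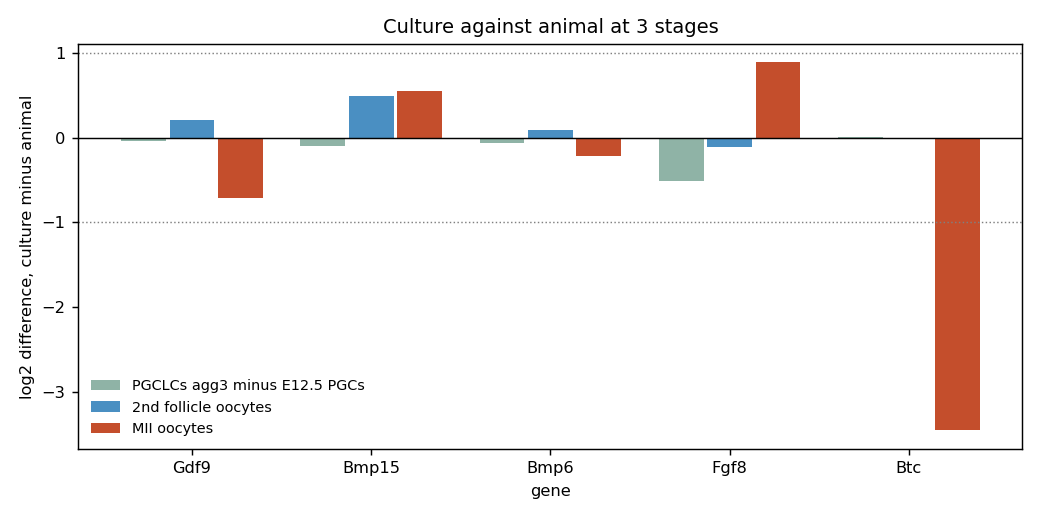
Bars give the log2 difference of culture minus animal for each gene on the x axis at 3 stages, with dotted lines at 2-fold and no error bars. Btc in MII oocytes, at -3.45, is the sole bar beyond the lines.

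Because granulosa and cumulus cells are a known source of Btc in the follicle, their markers are given beside it. The list of 12 such genes summed to 77.2 FPKM in MII oocytes from culture and 69.1 in those from the animal, with 7 and 6 genes at or above 1 FPKM. The aromatase gene Cyp19a1 had 27.1 and 42.2 FPKM, Kitl 4.53 and 7.96, and Fshr was listed at 0 in both. Of the 11 tested, 3 were at least 2-fold higher in culture, against 12.4% of tested genes, and 0 lower, against 9.45%. These were Inha with 19.3 and 2.55 FPKM, Inhba with 5.89 and 2.25, and Gja1 with 9.72 and 2.94. With equal sums 3 of the 11 were higher and 0 lower, against 16.7% and 1.18% of tested genes. With equal medians 2 were higher and 2 lower, against 6.87% and 21.9%. The cumulus expansion genes Has2, Ptgs2 and Tnfaip6 had 2.10, 4.77 and 5.91 FPKM in culture and 1.04, 3.45 and 4.18 in the animal. As deposited, these 3 expansion genes were higher in the group where Btc was lower. A further one, Ptx3, was lower there, at 0.787 against 1.82 FPKM. The list of 9 cumulus genes that holds them had a median difference of 0.60 as deposited, 0.78 with equal sums and 0.21 with equal medians. The other EGF-like ligands of the ovulating follicle were near 0, with Areg listed at 0 in both groups and Ereg at 0.368 and 0.274 FPKM. In samples of pooled oocytes, fewer cells of a type and less RNA per cell cannot be told apart, and the part of these cells in the Btc value was not tested.

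Receptors of the TGF-beta superfamily were also measured in the oocyte samples. Of 12 genes, 9 were tested, and Tgfbr2, Amhr2, Acvr1c and Acvrl1 were below 1 FPKM in all 4 oocyte groups. In both routes 7 of the 9 were at least 2-fold higher in MII than in secondary follicle oocytes and 0 lower, where 23.9% and 28% of tested genes were higher in culture and in the animal. The list's median was 2.38 in culture and 3.05 in the animal. With equal sums 5 and 5 were higher and 0 and 1 lower, where 15% and 15.2% of tested genes were higher. Bmpr1b, a type I receptor of BMP15 and BMP6, had 0.0515 FPKM in E12.5 PGCs, 14.3 in secondary follicle oocytes and 289 in MII oocytes of the animal, and 0.0802, 17.5 and 163 FPKM at the matching points in culture. Bmpr2, the type II receptor used by GDF9 and BMP15, had 4.83 and 105 FPKM at the oocyte stages of the animal and 4.18 and 77.2 in culture. Tgfbr1, the type I receptor of GDF9, differed less, with 15.4 and 19.7 FPKM in the animal and 11.3 and 18.7 in culture.

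The signalling genes behind these receptors differed in course. From secondary follicle to MII, 6 of 10 SMAD and SMURF genes were at least 2-fold higher in culture and 5 in the animal. In both routes 0 were lower, and 23.9% and 28% of tested genes were higher. With equal sums 3 were higher in each route, against 15% and 15.2%. Smad2 was within 2-fold, with 14.9 and 20.6 FPKM in culture and 17.0 and 32.8 in the animal. Smad3, which carries GDF9 signals, had 27.0 FPKM in secondary follicle and 420 in MII oocytes of the animal, and 31.9 and 207 in culture. The inhibitory Smad6 and Smad7, which SMAD signalling itself induces, had 16.0 and 7.15 FPKM in E12.5 PGCs and at most 0.524 FPKM in any oocyte group. All 8 SMAD target genes were at least 2-fold lower in secondary follicle oocytes than in E12.5 PGCs, against 25.9% of tested genes, with a median of -2.99 against -0.09. From day 3 aggregates to secondary follicle oocytes in culture 6 of 8 were, against 26.4%, with a median of -2.22, and Hey1 and Bambi were within 2-fold. Among them Id1 had 117 FPKM in E12.5 PGCs and 1.46 in secondary follicle oocytes of the animal, and Id3 had 232 and 103.

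Furin, the convertase of the precursors, had 33.4 FPKM in E12.5 PGCs, 50.7 in secondary follicle oocytes and 1412 in MII oocytes of the animal. In culture it had 26.4, 49.97 and 934 FPKM at the matching points. In both routes it was thus far higher at MII. Of 7 tested convertases and sheddases, 5 were at least 2-fold higher at MII in the animal, against 28% of tested genes, and 4 in culture, against 23.9%, with 0 lower in either. With equal sums 2 and 4 were higher, against 15.2% and 15%, and 0 and 1 lower. Adam10 and Adam17, the proteases that shed EGF-like ligands, had 256 and 105 FPKM in MII oocytes of the animal and 75.2 and 88.4 in culture.

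Receptors and relatives of FGF8 and BTC varied in level. Fgfr2 had 1.24 FPKM in secondary follicle and 122 in MII oocytes of the animal, and 1.68 and 52.5 in culture. Of 13 tested FGF receptors and feedback genes, 8 were at least 2-fold lower and 1 higher in secondary follicle oocytes than in E12.5 PGCs of the animal, against 25.9% and 24.3% of tested genes. Among the lower ones Dusp6, Etv4 and Etv5 had 13.7, 26.5 and 33.1 FPKM in E12.5 PGCs and 0.104, 0.309 and 2.56 in secondary follicle oocytes of the animal. Spry4, the higher one, had 3.92 and 11.6 FPKM, and Spry1, also a feedback inhibitor, 10.1 and 18.8. Egfr, a receptor of BTC, had 7.38 FPKM in MII oocytes from culture and 3.71 in those from the animal, and Erbb4, the other, 0.838 and 1.43. Of 10 other EGF family ligands, 5 were at or above 1 FPKM in each MII group. Among these, Egf had 46.0 FPKM in MII oocytes of the animal and 23.1 in culture, and Nrg4 26.1 and 24.7. The other FGF genes had at most 10.0 FPKM in any oocyte group. Of 30 other ligands of the TGF-beta superfamily, 20 were tested, and Bmp5 and Tgfb2 were near or above Bmp6 in level in some oocyte groups. Bmp5 had 193 FPKM in MII oocytes of the animal and 122 in culture, and Tgfb2 had 47.2 and 36.1 FPKM in secondary follicle oocytes of animal and culture.

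The known regulators of the growth factor genes split into a lower and a higher group after the secondary follicle. Figla and Nobox, which activate oocyte genes, had 117 and 367 FPKM in secondary follicle oocytes and 1.76 and 13.5 in MII oocytes of the animal. In culture they had 65.3 and 389 FPKM, and then 4.37 and 47.7. Nr6a1, a nuclear receptor known to repress Gdf9 and Bmp15, had 42.4 and 246 FPKM in secondary follicle and MII oocytes of the animal and 35.8 and 113 in culture. Sohlh2, a germ cell helix-loop-helix factor, had 0.902 and 26.9 FPKM at these stages of the animal and 4.42 and 29.2 in culture. Of the 8 regulators, 4 were at least 2-fold lower at MII in both routes (Figla, Nobox, Sohlh1 and Lhx8), where 28.6% of tested genes were in culture and 33.1% in the animal. The other 4 (Sohlh2, Nr6a1, Taf4b and Foxo3) were at least 2-fold higher, where 23.9% and 28% were. With equal sums 4 were lower in each route, and 2 in culture and 3 in the animal were higher.

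**Figure D5:**
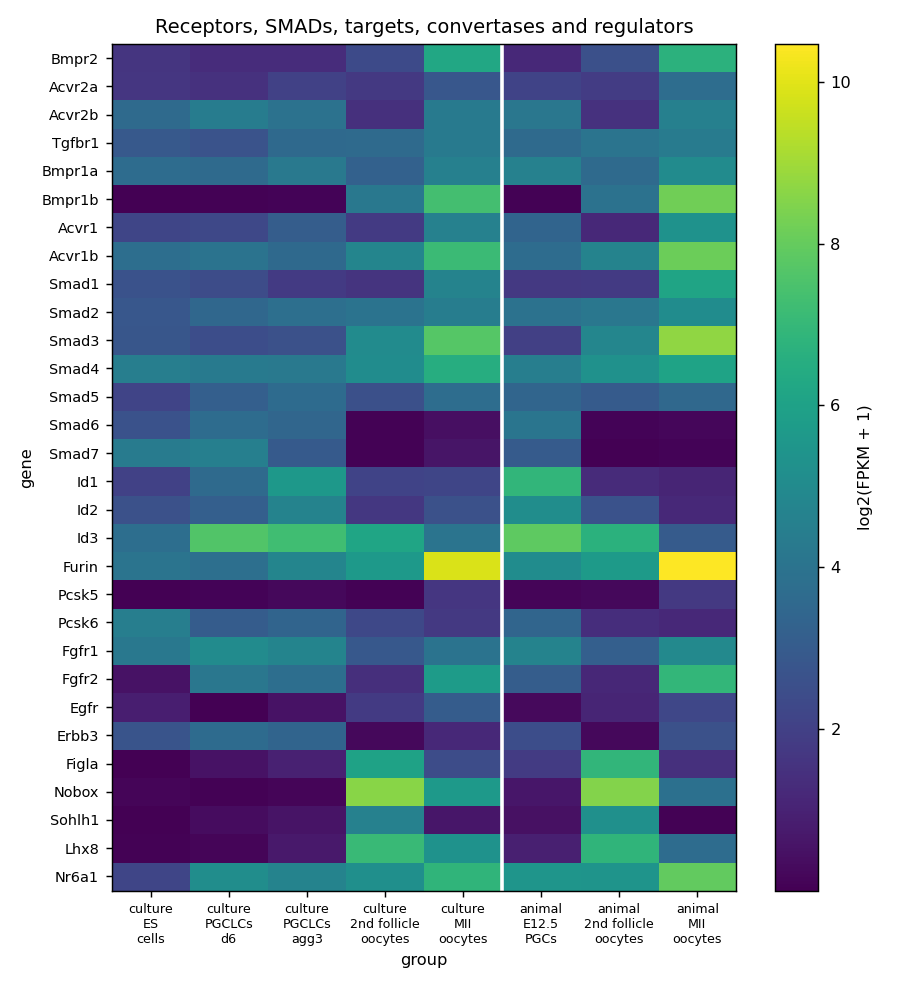
Colour gives log2(FPKM + 1) of 30 listed genes (y axis) in the 8 groups (x axis), with the culture route left and the animal route right of the white line. Furin and Bmpr1b are brightest in MII oocytes, at 1412 and 289 FPKM in the animal, and Figla and Nobox in secondary follicle oocytes, at 117 and 367 FPKM.

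The genes with the most similar pattern were sought by Pearson's r of log2(FPKM + 1) over the 8 groups, among 9019 genes with at least 10 FPKM in some group, as a description. For 8 points of which 4 are near 0 and 4 high, values near 1 are common. For Gdf9 they were Khdc1b, Fbxw22, Bmp6, Kpna7 and Cpa1, with r of 0.9998 to 0.999. Khdc1b had 916 and 3092 FPKM in secondary follicle and MII oocytes of the animal and 888 and 1786 in culture. For Bmp15 the 5 genes were H1foo, Mctp2, Trim61, Esr1 and Gdf9, with r of 0.997 to 0.995, and for Bmp6 they were Kpna7, Fbxw19, Gdf9, Nlrp9a and Khdc1b. Fgf8 had other neighbours, Gyg, Cdo1, Cacna1h, Gnb4 and Fam46c, all with a lower value at MII than at the secondary follicle in both routes. Gyg had 730 and 177 FPKM in the animal and 688 and 274 in culture.

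The genes most like Btc by r were Mamdc2, Plek, Flt1, Hnrnpul2 and Cep135, with r of 0.990 to 0.966. They were picked by likeness to Btc, which was far higher in MII oocytes of the animal than in any other group. A peak in that group was thus largely set by the choice and is no separate result. Mamdc2, Plek and Flt1 reached the minimum of 10 FPKM only there. Hnrnpul2 had 154 FPKM there and 42.0 to 62.4 in the other groups. Mamdc2 had 21.9 FPKM in MII oocytes of the animal against 0.682 in those from culture. Plek had 18.9 against 0.765 FPKM and Cep135 76.7 against 6.14. Among the members, r was 0.999 for Gdf9 with Bmp6, 0.995 for Gdf9 with Bmp15 and 0.915 for Gdf9 with Fgf8, and 0.181 for Fgf8 with Btc.

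The gene next to Gdf9 had a different course. Uqcrq, a subunit of respiratory complex III, starts on the opposite strand 191 bases from Gdf9. It had 458 FPKM in ES cells, 287 in secondary follicle oocytes and 34.2 in MII oocytes from culture, and 196, 305 and 9.03 in E12.5 PGCs, secondary follicle oocytes and MII oocytes of the animal. Uqcrq was thus high where Gdf9 was near 0, and lowest in the groups where Gdf9 was highest. Npm3, 4818 bases from Fgf8, was lower at the secondary follicle stage, with 53.4 FPKM in E12.5 PGCs and 4.13 in secondary follicle oocytes of the animal.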

How the data were processed

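Poly(A) RNA of 23 samples was sequenced, and the authors deposited a table of FPKM, 1 value per gene and group, per the file headers. Per the submitters' processing notes, TopHat2, Bowtie2 2.0.13, Cufflinks and Cuffdiff 2.2.1 were used with mm10. The annotation, the strand setting and the way samples were combined are not given in the sources used here. Depth per sample is unknown.

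Values were taken as log2(FPKM + 1), and genes with at least 1 FPKM in at least 1 group were compared by 11 differences with a limit of 2-fold and no test. The steps were tested on simulated data. The 5 members and the 18 gene lists (all of their 193 genes found) were chosen with earlier results of these data known. Named were the members, the 5 genes of most similar pattern each, up to 4 genes per list past 2-fold, direct receptors, convertases and regulators, and neighbouring genes. The transcript end motifs and the other list genes named were chosen after their values were seen. Sequences are from RefSeq (GRCm38.p6) and GENCODE M21. Python 3.11.15, pandas 2.3.3, NumPy 2.4.6 and matplotlib 3.10.9 were used. Alternatives were quantile normalization, median centring, equal sums, pseudocounts of 0.1 and 5, and a minimum of 5 FPKM or no minimum.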

Additional observations from a re-analysis of the deposited data

How the results depend on the processing

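The 55 differences (5 genes in 11 comparisons) were recomputed under 7 alternatives, and 360 of 385 values kept their side of 2-fold, 16 passed 2-fold and 8 no longer did. A minimum of 5 FPKM or no minimum cannot change the difference of a gene that is kept, and all 5 were kept. The 55 values under each of these settings were thus the same by design and say nothing about robustness. Of values past 2-fold, 1 changed sign, Bmp15 in the step to MII in the animal, at -0.24 after quantile normalization. Of the 360, 14 changed sign within 2-fold, 5 of them within 0.1 of 0 as reported. The other 9 were 8 of Bmp6 in the comparisons with MII (quantile normalization and equal sums) and Gdf9 between MII oocytes of culture and animal, at 0.20 after quantile normalization. The number of genes past 2-fold between MII oocytes of culture and animal, 1 as reported, was 2 with quantile normalization, 2 with median centring and 3 with equal sums. For the step to MII it went from 1 to 2 in culture (pseudocount of 0.1, median centring) and, though it stayed at 1, from Bmp15 higher to Fgf8 lower with quantile normalization and equal sums. It went from 4 to 2 in the animal (quantile normalization, equal sums), and for the difference of these steps from 1 to 2 (pseudocount of 0.1, median centring, equal sums). Between ES cells and day 6 PGCLCs it went from 0 to 2 with a pseudocount of 0.1, and between day 6 PGCLCs and day 3 aggregates from 1 to 2 with 0.1 and to 0 with 5, and from Fgf8 higher to Bmp15 lower (-1.06) with quantile normalization. The cause was not tested. Ranked by Spearman's rho in place of Pearson's r, 0 of the 5 most similar genes were kept for Gdf9, Bmp6 and Btc, 1 for Bmp15 and 2 for Fgf8. No paired analysis was possible because the table holds 1 value per group, and for the same reason no replicate was left out in turn. What depth limits cannot be stated, since no counts are given.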
